A study of Mus musculus with 8 samples.

Results

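Gpnmb, Cd63 and Cln6 code for membrane proteins of the late endosome, the lysosome and the endoplasmic reticulum (ER), and were described here as 3 genes of the 22180 genes measured in mouse liver. They were chosen by their measured differences between knockout and wild-type livers on these same arrays, which were among the largest rises. Their own differences between knockout and wild-type livers are therefore given as a description without a test. Each of the 3 symbols belonged to 1 probe set of the array, so no choice between probe sets was needed, and none of the 3 occurred in a probe set shared with another symbol.

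Whole-liver RNA of 8 C57BL/6N mice, each 27 days old, was hybridised to 1 array apiece. The 4 knockout mice carried 1 copy of an albumin-promoter Cre transgene and floxed alleles of Sco1 on both chromosomes. Sco1 is a mitochondrial copper chaperone of cytochrome c oxidase assembly. The labels of the 4 control mice, called wild-type here as in their source label, disagree. Titles and design text make all 4 floxed on both chromosomes and name no Cre. By the genotype labels, mice 1 and 3 carried the same Cre transgene with 1 floxed and 1 wild-type Sco1 allele, whereas Cre was absent from mice 2 and 4, in which both alleles were floxed. Because the albumin promoter drives Cre in hepatocytes, other cell types of a knockout liver may keep Sco1, which was not measured by cell type. Hepatocyte markers were high on every array, with a mean level over 11 measured markers of 13.06 to 13.14 log2 units.

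Gpnmb is a transmembrane glycoprotein of melanosomes and lysosomes. It is made by macrophages, dendritic cells and melanocytes, is induced in cells whose lysosomes are overloaded, and can be shed from the cell surface by the protease Adam10. Cd63 is a tetraspanin, a protein with a four-pass membrane topology, that cycles between the plasma membrane and late endosomes and is carried on exosomes. Cln6 is a multi-pass protein of the ER membrane that works with Cln8 in exporting newly made lysosomal enzymes to the Golgi, and its loss causes a form of neuronal ceroid lipofuscinosis, a lysosomal storage disease. Transcription factors of the MiT/TFE family (Mitf, Tfeb, Tfe3 and Tfec), which bind E-box letters in DNA, drive many lysosomal genes.

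The 250 bases before the annotated starts of the 3 genes are shown for comparison, since all 3 were chosen for a rise. They are from RefSeq in GRCm38.p6, each on the plus strand and with every CG pair in capitals. The windows lie at chr6:49036268-49036517 for Gpnmb, chr10:128909095-128909344 for Cd63 and chr9:62838535-62838784 for Cln6. The Gpnmb gene spans chr6:49036518-49058182 and Cln6 chr9:62838785-62852006, each with 1 RefSeq transcript. The Cd63 start is 1 of several, since the gene has 5 RefSeq transcripts and spans chr10:128896231-128912822.
Gpnmb: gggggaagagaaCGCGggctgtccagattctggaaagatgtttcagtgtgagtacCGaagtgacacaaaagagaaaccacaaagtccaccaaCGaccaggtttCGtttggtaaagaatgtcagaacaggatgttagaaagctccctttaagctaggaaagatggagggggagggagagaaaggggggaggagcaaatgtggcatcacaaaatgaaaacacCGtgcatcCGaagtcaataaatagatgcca
Cd63: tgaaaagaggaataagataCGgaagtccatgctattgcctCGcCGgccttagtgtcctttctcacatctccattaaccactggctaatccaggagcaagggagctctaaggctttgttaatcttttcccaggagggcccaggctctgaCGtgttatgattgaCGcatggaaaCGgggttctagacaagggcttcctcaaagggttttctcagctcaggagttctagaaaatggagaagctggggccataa
Cln6: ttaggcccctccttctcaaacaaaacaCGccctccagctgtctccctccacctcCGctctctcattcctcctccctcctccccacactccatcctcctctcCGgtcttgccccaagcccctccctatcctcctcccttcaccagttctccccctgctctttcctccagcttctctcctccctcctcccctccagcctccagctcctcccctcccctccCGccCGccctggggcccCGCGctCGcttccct
The Cln6 window was the richest of the 3 in G and C, at 65.6%, above 83.8% of all 32851 promoter windows in the table. The Gpnmb window had 47.2% G and C and the Cd63 window 48.8%, both below the median of 52.4%. CG pairs numbered 7, 6 and 8 in the windows of Gpnmb, Cd63 and Cln6, near the median of 6. In the 300 bases that include 50 bases after the start, none of the 3 held the CLEAR palindrome known from lysosomal gene promoters, found in 0.326% of all windows with both strands searched. None held its core CACGTG, which counts within the palindrome too and was found in 7.15% of all windows, CATGTG (14.2%) or TTGCATCA, letters bound by ATF4 with C/EBP factors (0.895%). The absence of these letters covers only these windows.

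Features of the arrays as a whole are given first, and their part in the values by mouse was not tested. Knockout mouse 4 had a low mean level of Y-linked genes, 7.36 log2 units against 8.60 to 8.86 on the other arrays. Its level of the female marker Xist was 5.01, within the 4.59 to 5.06 of the other arrays. Mice 1 of both groups had high levels of the clock gene Dbp, 9.66 and 9.86 against 6.87 to 7.33. The targeted gene, Sco1, lay lower in the knockout livers, at 7.59 ± 0.10 against 8.00 ± 0.15 (SD, n = 4 each), and every knockout array was below every wild-type array. The difference of -0.41 did not pass (limma with Benjamini-Hochberg adjustment, adjusted p = 0.0633, and 0.036 to 0.313 over 20 alternatives). Among all genes 96 rose, 0.433% of those tested, and 159 fell, 0.717% (limma with Benjamini-Hochberg adjustment, adjusted p under 0.05). Higher genes made up 37.6% of these, and 24.1% when arrays were centred on their medians. Every knockout array lay above every wild-type array for 5.26% of all genes and below for 5.49%. An unadjusted p under 0.05 (limma) went with a higher level for 8.61% of all genes and with a lower level for 8.06%. The labels do not say whether the mice were littermates, so these tests measure the spread between the mice as sampled.

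Gpnmb was measured at 6.995, 6.40, 6.64 and 6.76 log2 units in knockout mice 1 to 4. In wild-type mice 1 to 4 it was measured at 5.54, 5.57, 5.51 and 5.25. The groups did not overlap, and a gap of 0.83 separated the lowest knockout from the highest wild-type liver. The means were 6.70 ± 0.25 and 5.47 ± 0.15 (SD, n = 4 each), a difference of 1.23 log2 units or 2.34-fold. The wild-type livers lay below the array medians, which were 5.79 to 5.89 over all probe sets. Gpnmb ranked 11 among all genes by the size of its rise.

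Cd63 stood at 10.13, 9.68, 9.98 and 10.13 log2 units in knockout mice 1 to 4. The wild-type values were 8.22, 8.83, 8.62 and 8.77, with the lowest in mouse 1, which carries Cre. Again no value overlapped, and the gap between the groups was 0.85. The knockout mean of 9.98 ± 0.21 exceeded the wild-type mean of 8.61 ± 0.27 (SD, n = 4 each) by 1.37 log2 units or 2.58-fold, which ranked 7 among all genes.

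Cln6 reached 9.65, 9.16, 9.66 and 9.42 log2 units in knockout mice 1 to 4. It was lower in every wild-type liver, at 8.54, 8.32, 7.98 and 8.28, with the highest and the lowest value in the Cre-carrying mice 1 and 3. The gap between the groups was 0.62, the narrowest of the 3 genes. Its means were 9.48 ± 0.23 and 8.28 ± 0.23 (SD, n = 4 each), a difference of 1.19 log2 units or 2.29-fold, rank 13. Between Gpnmb and Cln6 in that order stood the metallothionein gene Mt1, at 1.196.

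**Figure D1:**
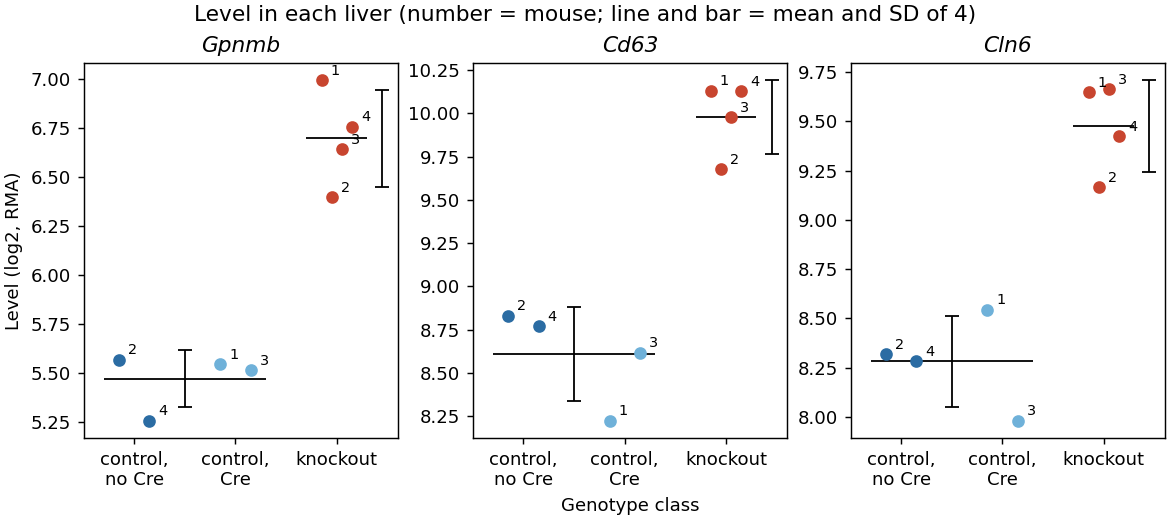
Level of Gpnmb, Cd63 and Cln6 in each liver on the deposited log2 scale, by genotype class, with each point numbered by its mouse and the line and bar giving the mean and SD of the 4 wild-type or the 4 knockout livers. The knockout points lie above all control points for each gene, and knockout mouse 2 is the lowest knockout point in all 3 panels.

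The control classes, which rest on the genotype labels alone, allowed a comparison that had no part in the choice of the genes, namely whether the Cre transgene with 1 floxed allele went with another level than floxed alleles without Cre. Over all genes 0 passed (limma with Benjamini-Hochberg adjustment), and 671 of 22180, or 3.03%, had an unadjusted p under 0.05. Cd63 was measured at 8.42 in the Cre-carrying controls and at 8.80 in the Cre-free controls (n = 2 each). The difference of -0.38 ± 0.18 (SE) had a 95% interval of -0.77 to 0.01 and did not pass (limma, unadjusted p = 0.0557). For Gpnmb the class means were 5.53 and 5.41, a difference of 0.12 ± 0.18 with an interval of -0.29 to 0.52 (limma, unadjusted p = 0.53). For Cln6 they were 8.26 and 8.30, a difference of -0.039 ± 0.20 with an interval of -0.49 to 0.42 (limma, unadjusted p = 0.853). With 2 mice in a class these intervals are wide, and the sign of the Gpnmb difference turned without wild-type mouse 4 (-0.038) and that of Cln6 without wild-type mouse 3 (0.24). The Cd63 difference ran from -0.58 without wild-type mouse 3 to -0.18 without wild-type mouse 1, and its sign held in 18 of 18 alternatives. Leaving out 1 liver could not turn that sign, since both Cre-carrying livers lay below both Cre-free livers. Wild-type mouse 1, with the lowest Cd63, was also the control with high Dbp, at 9.86 against 7.08 to 7.33. With 2 mice in a class, the part of that mouse in the class difference cannot be separated from that of the class. Sco1 itself stood at 8.01 in the Cre-carrying and 7.99 in the Cre-free controls.

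In the order of levels the knockout stood highest for each gene. The control classes overlapped for Gpnmb and Cln6, whereas for Cd63 both Cre-carrying livers lay below both Cre-free livers, a difference that did not pass. Set against the Cre-carrying controls alone, the knockout livers were higher by 1.17 log2 units for Gpnmb, 1.56 for Cd63 and 1.21 for Cln6. Against the Cre-free controls alone the differences were 1.29, 1.18 and 1.17. The Cd63 difference thus varied most with the class of control.

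The profiles over the 8 livers were compared with those of all other genes by the root mean square gap in log2 units, after each gene was centred on its mean. The gene nearest to Cd63 was Anxa8, an annexin that binds membranes in the presence of calcium, with a gap of 0.10. The predicted gene Gm19619 followed at 0.21, Gpnmb at 0.23, Rragd, a Rag GTPase that brings mTORC1 to the lysosome, at 0.25, and Tuba8, an alpha-tubulin, at 0.26. The gene nearest to Gpnmb was Gm19619 at 0.17, then Anxa8 at 0.17, Cln6 at 0.19, the predicted gene Gm10804 at 0.20 and Rragd at 0.21. Cln6 had Irf7, an interferon regulatory factor, as its nearest gene at 0.17, then Gpnmb at 0.19, Etnppl, a phospho-lyase of ethanolamine phosphate, at 0.22, and Anxa8 and the receptor gene Mrgpre at 0.25 each. Gpnmb was thus among the 5 nearest genes of both others, while Cd63 ranked 13 in the order for Cln6 and Cln6 ranked 6 in the order for Cd63. The measure is led by the size of the difference between the groups, which all these genes share.

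**Figure D2:**
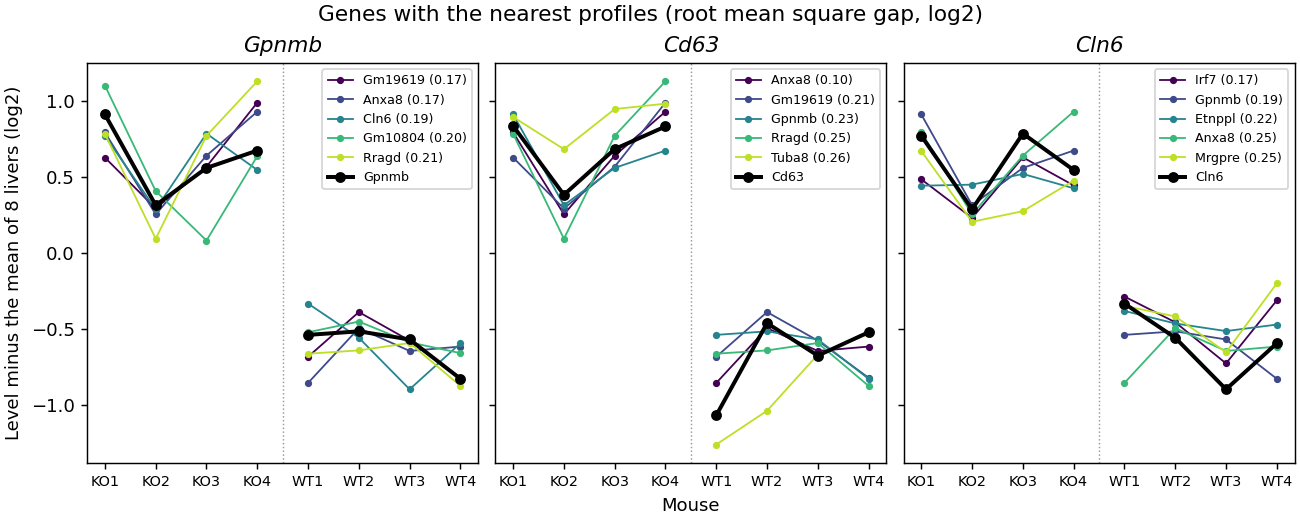
Level of each gene minus its mean over the 8 livers, in log2 units, for Gpnmb, Cd63 and Cln6 (black) and the 5 genes with the nearest profile to each (coloured, with the root mean square gap), where lines join the points of 1 gene within a group. Anxa8 appears in all 3 panels and follows Cd63 with a gap of 0.10.

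Within the knockout group the 3 genes shared their lowest liver. Knockout mouse 2 was the lowest of the 4 for Gpnmb, Cd63 and Cln6. The same mouse was the lowest for 51.0% of the 96 genes that rose and for 24.0% of all genes. Mouse 1 held the highest Gpnmb and Cd63, and mouse 3 the highest Cln6. In the wild-type group no order was shared, mouse 4 being lowest for Gpnmb, mouse 1 for Cd63 and mouse 3 for Cln6. Over the 8 deviations from the group means, as a description without a test, Pearson r was 0.50 between Gpnmb and Cln6, 0.35 between Gpnmb and Cd63 and 0.050 between Cd63 and Cln6 (Spearman rho 0.52, 0.33 and -0.095). Without the 2 livers farthest from the median deviation of the first gene of each pair, r was 0.18, 0.28 and 0.25. With the second gene setting which 2 livers are left out it was 0.33, 0.20 and -0.75, so the sign for Cd63 and Cln6 depended on that choice. These pairs share arrays and their scaling, and 14.6%, 24.8% and 45.4% of all genes had an r as high or higher with the first gene of the pair. Among the 4 knockout livers alone r was 0.75, 0.91 and 0.75, and among the 4 wild-type livers 0.095, -0.35 and -0.50.

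Stress genes were compared liver by liver because ATF4-driven genes rise with mitochondrial damage. Nupr1, a stress-induced chromatin protein, stood at 9.38, 8.52, 9.03 and 9.95 log2 units in knockout mice 1 to 4 and at 6.63 to 6.92 in the wild-type livers. It shared its lowest knockout liver, mouse 2, with the 3 genes, but its highest was mouse 4. Ddit3, the factor CHOP, reached 9.05 in knockout mouse 4 and 7.65 to 8.16 in the other knockout livers. Trib3, a pseudokinase induced by ATF4, was 7.96, 7.50, 7.64 and 8.10 in the knockout livers, again lowest in mouse 2. Over the 8 deviations, r with Gpnmb was 0.54 for Nupr1, 0.65 for Trib3 and 0.63 for Atf4. Of all genes 11.9%, 6.65% and 7.30% had an r with Gpnmb as high or higher. With Cd63 r was 0.50 for Nupr1, -0.28 for Trib3 and -0.17 for Atf4, and with Cln6 it was 0.42, 0.50 and 0.16. The shares of all genes with an r as high or higher were 10.7%, 74.4% and 65.3% for Cd63 and 20.9%, 15.7% and 39.7% for Cln6. Without the 2 livers farthest from the median deviation of Gpnmb, r with Nupr1 was 0.24 and with Trib3 0.27, so these values rested on those livers, while that with Atf4 was 0.80. By the same step for Cd63, r was 0.50 with Nupr1 and turned to 0.12 with Trib3 and 0.17 with Atf4. For Cln6 it turned to -0.58 with Nupr1 and was 0.41 with Trib3 and 0.36 with Atf4.

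Macrophage genes followed another order among the knockout livers. Over 23 measured markers of Kupffer cells and macrophages the mean level was 8.79, 8.99, 8.88 and 9.19 in knockout mice 1 to 4. Knockout mouse 1, with the highest Gpnmb and Cd63, thus held the lowest macrophage level of its group and was lowest for 13 of the 23 markers. In wild-type mice 1 to 4 the mean level was 8.86, 9.07, 8.68 and 8.69. There the highest was mouse 2, which also held the highest wild-type Gpnmb and Cd63. The Kupffer cell gene Adgre1 was 8.96 in knockout mouse 1 and 9.88 in knockout mouse 4. Clec4f, a lectin restricted to Kupffer cells, was 10.06 and 10.44 in the same mice. Over the 8 deviations r between Gpnmb and Adgre1 was -0.16, with Clec4f -0.39, with Trem2, a lipid receptor of macrophages, -0.031, and with the galectin gene Lgals3 0.42. Without the 2 livers farthest from the median deviation of Gpnmb these were -0.27, -0.21, -0.090 and 0.12. Among the 4 knockout livers alone they were -0.56, -0.53, -0.58 and -0.031, and among the 4 wild-type livers 0.46, 0.27, 0.33 and 0.95. With all 8 livers, 64.8%, 81.8%, 55.1% and 19.9% of all genes had an r with Gpnmb as high or higher. Between Cd63 and Trem2 r was -0.69, with 96.3% of all genes as high or higher, and -0.79 without the 2 livers farthest for Cd63. The lysosomal macrophage glycoprotein gene Cd68 had an r of 0.70 with Cln6, 0.21 with Gpnmb and -0.48 with Cd63, although its 4 knockout values lay within 9.95 to 9.98 and its spread came from the wild-type livers. Without the 2 livers farthest for each of the 3 genes these values were 0.67 with Cln6, 0.023 with Gpnmb and 0.48 with Cd63, where the sign turned. Over all 8 livers, 5.62%, 34.9% and 87.7% of all genes had an r with Cln6, Gpnmb and Cd63 as high as Cd68 or higher. In these whole-liver samples, more cells of a type and more RNA per cell cannot be told apart.

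**Figure D3:**
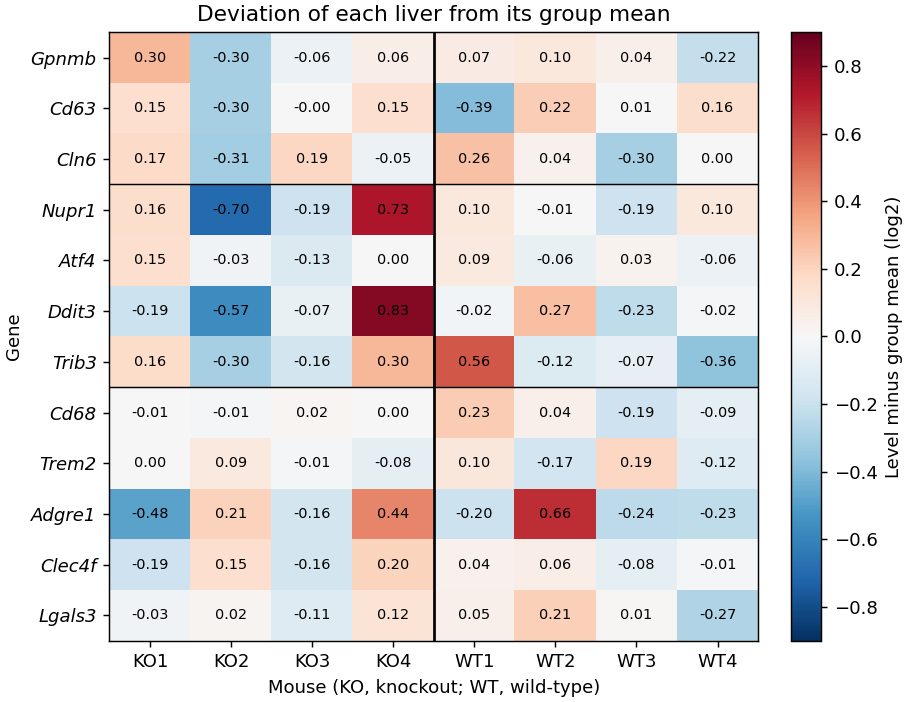
Deviation of each liver from the mean of its group in log2 units, for Gpnmb, Cd63 and Cln6 (top), 4 stress genes (middle) and 5 macrophage genes (bottom), with columns for the 4 knockout and 4 wild-type mice. Knockout mouse 2 is low in the top block and in Nupr1, while Adgre1 and Clec4f are lowest in knockout mouse 1.

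The factors and partners around Gpnmb did not pass. Of 10 measured genes, 0 rose and 0 fell (limma, Benjamini-Hochberg adjustment), where 1.15% of all genes passed in either direction. An unadjusted p under 0.05 (limma) was found for 0 of the 10, against 8.61% of all genes higher and 8.06% lower. The list median was 0.029 log2 units, against 0.027 for all genes. The MiT/TFE factors stood at 0.066 for Tfeb, 0.010 for Tfe3, -0.032 for Mitf and -0.048 for Tfec. Pmel, the melanosomal relative of Gpnmb, stood at 0.060 and the sheddase gene Adam10 at 0.061. Cd44, a surface receptor reported to bind Gpnmb, had the largest difference of the list at 0.17 (limma with Benjamini-Hochberg adjustment, adjusted p = 0.571), and the syndecan gene Sdc4 stood at 0.0055. The integrin genes Itgb1 and Itgav stood at 0.041 and 0.016, and the signs of Tfe3, Itgav and Sdc4 turned when arrays were centred on their medians, that of Mitf when quantile normalization was repeated.

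None of the other tetraspanins passed, where 1.15% of all genes passed in either direction. Of 29 measured, 20 had a positive difference, with a median of 0.066 and a range of -0.17 (Tspan6) to 0.28 (Tspan17), and the smallest adjusted p was 0.186 (limma with Benjamini-Hochberg adjustment). At an unadjusted p under 0.05 (limma), 2 were higher and 1 was lower, against 8.61% and 8.06% of all genes. Cd9, Cd81 and Cd82, tetraspanins of the plasma membrane and of exosomes, stood at 0.16, 0.043 and 0.13. Of 24 measured genes of late endosomal sorting and vesicle release 0 passed either way (limma), and the median was 0.042. At an unadjusted p under 0.05 (limma), 2 of the 24 were higher and 0 lower, against the same shares of all genes. Rab7, the GTPase of late endosomes, stood at 0.21 (adjusted p = 0.203) and the lysosomal membrane proteins Lamp1 and Lamp2 at 0.12 and -0.013. Every knockout liver lay above every wild-type liver for 2 of the 29 tetraspanins, Tspan17 and Tspan10, and for 2 of the 24 sorting genes, Rab7 and Lamp1, against 5.26% of all genes.

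Beside Cln6, 1 of 11 measured ceroid lipofuscinosis genes rose and 0 fell, where 0.433% of all genes rose. At an unadjusted p under 0.05 (limma) 3 were higher and 1 lower, against 8.61% and 8.06% of all genes. Cln3, a lysosomal membrane protein, rose from 8.78 ± 0.12 to 9.29 ± 0.16 log2 units (SD, n = 4 each), by 0.50 ± 0.098 (SE; limma with Benjamini-Hochberg adjustment, adjusted p = 0.0384). The lysosomal peptidase Tpp1 stood at 0.41 ± 0.096 (adjusted p = 0.0671) and progranulin, Grn, at 0.37 ± 0.087 (adjusted p = 0.0706), with no overlap between the groups for either. Ctsd, an aspartic protease, stood at 0.14, the thioesterase Ppt1 at 0.098, the vesicle chaperone Dnajc5 at 0.059, the protease Ctsf at 0.048, Kctd7, a channel-domain protein, at -0.046, the lysosomal pump Atp13a2 at -0.21 and the lysosomal transporter Mfsd8 at -0.24. Cln8, the partner of Cln6 in ER export, stood at 0.093 ± 0.096 (adjusted p = 0.653), with knockout values of 6.83, 7.06, 7.02 and 7.12 and wild-type values of 7.07, 6.98, 6.72 and 6.90 that overlapped. The Cln3 result was kept without knockout mouse 4 or wild-type mouse 1 and was lost without any of the other 6 mice (adjusted p up to 0.116, and 0.0232 to 0.292 over 20 alternatives).

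**Figure D4:**
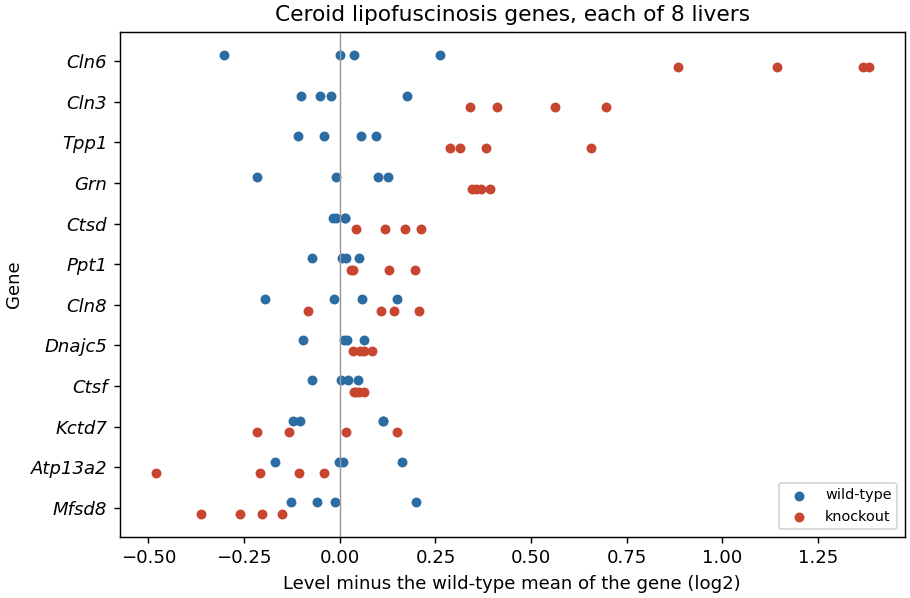
Level of Cln6 and of 11 other ceroid lipofuscinosis genes in each of the 8 livers, in log2 units relative to the wild-type mean of the gene, with wild-type livers in blue and knockout livers in red. Cln6, which was chosen for its rise, has the largest difference. Of the other genes, Cln3, Tpp1, Grn and Ctsd have knockout points above all wild-type points.

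The other receptors and carriers of ER export lay on the negative side. Of 22 measured, 20 had a negative difference and 0 passed either way (limma), where 1.15% of all genes passed. At an unadjusted p under 0.05 (limma) 5 were lower and 0 higher, against 8.06% and 8.61% of all genes. The median was -0.11 against 0.027 for all genes. Cnih1, a cargo receptor, stood at -0.32 ± 0.086 (limma with Benjamini-Hochberg adjustment, adjusted p = 0.102), the lectin Lman2 at -0.28 and Mcfd2, the partner of Lman1, at -0.33. All knockout livers lay below all wild-type livers for 3 of the 22, against 5.49% of all genes.

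Of 40 measured lysosomal enzymes and membrane proteins 2 rose, 0 fell and 38 did not pass, where 0.433% of all genes rose. The difference was positive for 30, with a median of 0.084. At an unadjusted p under 0.05 (limma) 14 were higher and 4 lower, where all genes have 8.61% and 8.06%. Cathepsin Z, Ctsz, rose by 0.55 ± 0.072 (SE; limma, Benjamini-Hochberg adjusted p = 0.00656) and was kept with any 1 mouse left out. Cathepsin L, Ctsl, rose by 0.37 ± 0.072 (adjusted p = 0.036), a result lost with any 1 of the 8 mice left out (adjusted p 0.0645 to 0.11, and 0.0051 to 0.281 over 20 alternatives). Arsa, a sulfatase, stood at 0.77 ± 0.17 (adjusted p = 0.0546) and the sialidase Neu1 at 0.43 ± 0.096 (adjusted p = 0.0565). The groups did not overlap upward for 12 of the 40 and downward for 3, where all genes have 5.26% and 5.49%. The largest difference of the list, 0.77, was smaller than that of any of the 3 genes, which were chosen from among the largest rises.

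Of 20 measured genes of lysosomal stress and TFEB feedback 2 rose and 0 fell, where 0.433% of all genes rose. The difference was positive for 19, with a median of 0.21, and at an unadjusted p under 0.05 (limma) 8 were higher and 1 lower, where all genes have 8.61% and 8.06%. Both genes that rose had been seen to rise before the list was written. Rragd rose by 1.39 ± 0.18 (SE; limma, Benjamini-Hochberg adjusted p = 0.0061). It was at 7.59, 6.90, 7.58 and 7.94 in knockout mice 1 to 4, lowest in mouse 2, and at 5.93 to 6.21 in the wild-type livers. Nupr1, the other, is described above with the stress genes. Flcn and Fnip2, which act on Rragc and Rragd, stood at 0.28 and 0.21, the proton pump subunit Atp6v1a at 0.29 (adjusted p = 0.0967) and the autophagy receptor Sqstm1 at 0.086, none of which passed.

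Of 28 measured genes of the integrated stress response 4 rose and 0 fell, where 0.433% of all genes rose. The median was 0.15, and 21 differences were positive. At an unadjusted p under 0.05 (limma) 11 were higher and 0 lower, against 8.61% and 8.06% of all genes, and every knockout liver lay above every wild-type liver for 8, against 5.26%. Nupr1 rose by 2.41 ± 0.24, and Psat1, Asns and Phgdh, which make serine and asparagine, rose by 0.77, 0.67 and 0.41 (limma with Benjamini-Hochberg adjustment, adjusted p = 0.00226 for Nupr1 and 0.03, 0.0437 and 0.0491 for the others). Atf4 itself stood at 0.083 ± 0.082, Ddit3 at 0.82 and Trib3 at 0.76 (adjusted p = 0.638, 0.131 and 0.081). Leaving out 1 mouse kept the Nupr1 result each time, that of Psat1 without knockout mouse 2 or 4 only, that of Phgdh without knockout mouse 4 only, and that of Asns never (highest adjusted p 0.0845, 0.133 and 0.112). This list also was written with earlier results known.

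Beside Gpnmb, which macrophages also make, 0 of 23 measured Kupffer cell and macrophage markers rose or fell (limma), where 1.15% of all genes passed. At an unadjusted p under 0.05 (limma) 3 of the 23 were higher and 0 lower, against 8.61% and 8.06% of all genes. The difference was positive for 21 of the 23, with a median of 0.12. The mean level of the list was 8.79 to 9.19 in the knockout livers and 8.68 to 9.07 in the wild-type livers, ranges that overlapped. Cd68 stood at 0.36 ± 0.093 (limma with Benjamini-Hochberg adjustment, adjusted p = 0.0921), Mpeg1, a pore-forming protein of macrophages, at 0.56, Adgre1 at 0.068 and Clec4f at 0.090. Of 16 measured markers of lipid-laden macrophages, in which Gpnmb is typically found, 1 rose, the fatty acid receptor gene Cd36, by 0.53 ± 0.11 (adjusted p = 0.0425), which was kept without wild-type mouse 1 only (highest adjusted p 0.119 with 1 mouse left out). Of all genes 0.433% rose. At an unadjusted p under 0.05 (limma) 4 of the 16 were higher and 1 lower, against 8.61% and 8.06% of all genes. Every knockout liver lay above every wild-type liver for 5 of the 16, against 5.26% of all genes. The difference was positive for 12 of the 16, with a median of 0.16 against 0.027 for all genes. The mean level of these 16 markers was 9.20 to 9.22 in the knockout livers and 9.01 to 9.16 in the wild-type livers, without overlap. Anxa5, an annexin, stood at 0.37 (adjusted p = 0.125), the lysosomal protease gene Ctsb at 0.25 (adjusted p = 0.129), Lgals3 at 0.21, the integrin gene Itgax at 0.17 and Trem2 at 0.16. The part of cell makeup in the Gpnmb difference was not tested.

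Of the markers of other liver cells 0 passed in either direction (limma), where 1.15% of all genes passed. An unadjusted p under 0.05 (limma) went with a higher level for 4 lymphocyte, 2 endothelial and 1 neutrophil marker, against 8.61% of all genes. It went with a lower level for 1 each of the neutrophil, hepatocyte and cholangiocyte markers, against 8.06% of all genes. The list medians were 0.12 for 12 endothelial markers, 0.21 for 13 lymphocyte markers, 0.11 for 12 neutrophil markers, 0.060 for 8 cholangiocyte markers, -0.058 for 12 stellate cell markers and -0.0088 for 11 hepatocyte markers. The mean level of the lymphocyte list was 6.17 to 6.42 in the knockout livers and 5.94 to 6.09 in the wild-type livers, without overlap. List means also did not overlap for the ceroid lipofuscinosis, lysosomal enzyme, TFEB, integrated stress, lipid-laden macrophage and tetraspanin lists. All 13 lymphocyte differences were positive, and the groups did not overlap upward for 2 of the 13, against 5.26% of all genes. Knockout mouse 4 was the highest knockout liver for 9 of the 13. The mean level of the endothelial list was 9.87 to 10.004 in the knockout and 9.71 to 9.88 in the wild-type livers, which overlapped. Cln6 had an r over 0.7 with 5 of the 12 endothelial markers over the 8 deviations, against 5.69% of all genes. This was the highest share in any list for Gpnmb, Cd63 or Cln6. Cln6 also passed that r with 10 of 40 lysosomal enzymes and membrane proteins. It did so with 2 of 8 cholangiocyte, 2 of 12 stellate cell and 0 of 12 neutrophil markers. Gpnmb and Cd63 passed it with 0 of the 12 endothelial markers each. The part of lymphocytes or endothelial cells in the differences was not tested.

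**Figure D5:**
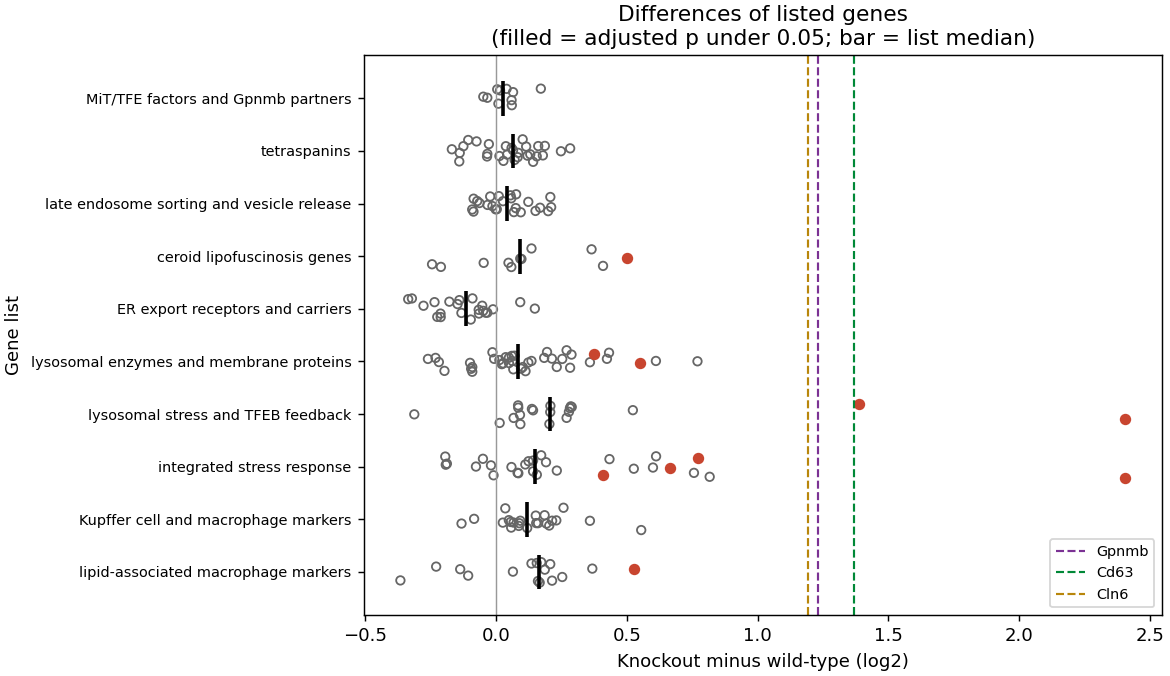
Difference between knockout and wild-type livers in log2 units for each measured gene of 10 lists, with filled points for adjusted p under 0.05, a bar at each list median and dashed lines at the differences of Gpnmb, Cd63 and Cln6. Only Rragd and Nupr1 among the plotted genes lie beyond the dashed line of Cln6.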

How the data were processed

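The deposited log2 values, 1 per probe set, came from RMA. The submitters' processing notes name oligo, version 1.24, as the software the authors used. The method corrects background, makes array distributions equal and pulls large differences toward 0. The log2 scale was inferred from the method and the values, and the genome build was not given in the sources used here. Of 39137 probe sets 23521 had 1 gene symbol in the platform annotation, and the brightest per gene left 22180 genes.

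Differences were fitted by lmFit and eBayes of limma (version 3.58.1, under R 4.3.3; two-sided, 4 against 4 arrays, Benjamini-Hochberg over all genes), and the control classes in a fit with 3 classes. Errors of differences are limma standard errors. The fit was checked on simulated data. The number of arrays limits the precision.

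The 16 gene lists (292 of 309 entries measured) and the members were chosen with earlier results of these data known. Named are Sco1, the 3 members, the 5 nearest genes of each, up to 4 genes of smallest adjusted p per list (not for lists of other liver cells), all genes of the ceroid lipofuscinosis and MiT/TFE lists, and 10 preset macrophage and stress genes, of which Gdf15 was not analysed here. Other genes (Mt1, Dbp, Cd9, Cd81, Cd82, Lamp1, Lamp2, Sqstm1, Flcn, Fnip2) were named after their values were seen. Alternatives covered variance, scaling, dim genes, probe sets, mouse number, array weights, control class and each array left out. Figures used Python version 3.11.15 and matplotlib version 3.10.9.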

Additional observations from a re-analysis of the deposited data

Results flagged for a closer look

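A check for a lone high or low array within each group of 4 (Dixon's test) was run on 70 genes, 140 groups in all, and found 6 cases, where chance gives about 1 in 20 groups. For Gpnmb, wild-type mouse 4 lay low at 5.25 log2 units, the next wild-type value being 5.51. Adgre1 was high in wild-type mouse 2, at 10.04 against 9.18 for the next. Mitf was high in wild-type mouse 4, at 7.70, and Tspan17 low in wild-type mouse 2, at 7.50. Pmel was high in knockout mouse 2, at 6.59, and Sdc4 low in knockout mouse 4, at 12.11.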

How the results depend on the processing

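Over the alternatives the differences of Gpnmb, Cd63 and Cln6 ran from 1.13 to 1.33, 1.18 to 1.56 and 1.09 to 1.298 log2 units. The genes were chosen on this contrast and their groups did not overlap, so leaving out arrays could not turn a sign. The trended robust variance left these differences unchanged. Gpnmb was too dim for the filter at the median level. Counts over all genes moved more. With 1 array left out 29 to 65 genes rose and 60 to 119 fell. With trended robust variance 159 rose and 300 fell, with genes above the lower quartile 155 and 301, with genes above the median 319 fell, with centred arrays 271 fell and with array weights 245 fell. With Cre-carrying controls alone 4 rose and 2 fell, and with Cre-free controls alone 7 and 9, with fewer arrays. The arrays of both mice numbered 1 were left out together after the data were seen, and 28 rose and 37 fell. Mouse numbers did not pair the arrays as a set. Deviations of same-numbered mice correlated across genes at 0.27, -0.022, 0.031 and -0.10 for numbers 1 to 4, and 1 of 4 knockout arrays was closest to its own number. The mice numbered 1, with the highest of these values, also shared the high Dbp. With the number as a block 68 rose and 142 fell, the control class difference of Gpnmb turned to -0.12, those of Cd63 and Cln6 went to -0.53 and -0.40, and the count of lipid-laden macrophage markers went to 0.

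With 1 array left out, a class of controls may hold 1 array, assumed to vary like the rest, and the control class difference was -0.038 to 0.27 for Gpnmb, -0.58 to -0.18 for Cd63 and -0.32 to 0.24 for Cln6. The count that rose was 0 to 1 for ceroid lipofuscinosis genes, 1 to 3 for lysosomal enzymes, 1 to 3 for the integrated stress response and 0 to 1 for lipid-laden macrophage markers. With either class of control alone all of these and the TFEB list were 0. With trended robust variance they were 3, 6, 7 and 2. With either filter on dim genes 3 ceroid lipofuscinosis and 5 lysosomal genes rose, and with array weights 5 lysosomal genes. Without both mice 1 the counts were 0, 1, 1 and 0, and 1 for the TFEB list.

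Genes near 0 changed sign. With Cre-free controls Adgre1 stood at -0.15, Cd44 at -0.038, Itgav at -0.0012 and Tfe3 at -0.015. With Cre-carrying controls Mitf stood at 0.054 and Sdc4 at -0.053. With centred arrays Itgav stood at -0.013, Tfe3 at -0.020 and Sdc4 at -0.024. Mitf stood at 0.0100 with repeated quantile normalization, Itgav at -0.0091 with array weights and Tfe3 at -0.0035 without both mice 1. With 1 array left out the ranges were -0.078 to 0.29 for Adgre1, -0.015 to 0.091 for Pmel, -0.11 to 0.037 for Tfec, -0.067 to 0.049 for Mitf, -0.10 to 0.089 for Itgav, -0.055 to 0.052 for Tfe3, -0.038 to 0.064 for Sdc4 and -0.11 to 0.011 for Kctd7. The cause of these changes was not tested.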
